A study of Drosophila melanogaster with 16 samples.

Results

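The Rab genes encode small GTPases that sit on the membranes of vesicles and organelles. The members were the protein-coding genes of the Release 6 annotation whose symbol is Rab or RabX followed by a number and, in some, capital letters, with Rab3 left out by the rule. These were 29 genes of 13946 protein-coding genes on the 7 main chromosome sequences, of which 10 lay on X and 19 on the autosome arms. The symbols of 3 further genes, Rab9Db, Rab9Fa and Rab9Fb, end in a lower-case letter and fell outside the rule.

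A Rab protein is switched on when an exchange factor loads it with GTP and switched off when a GTPase-activating protein makes it hydrolyse that GTP. In its active form it recruits effectors such as tethers, motors and coat factors, so that each Rab marks a station of the traffic between endoplasmic reticulum, Golgi, plasma membrane, endosomes and lysosomes. Neurons and photoreceptors, in which fly heads are rich, depend on this traffic for synaptic vesicles, for the renewal of light-sensing membrane and for the clearance of endocytosed cargo.

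Heads of male *Drosophila melanogaster* of the white-eyed laboratory strain w1118, labelled wild type, were taken at day 10 or day 50 of adult life, and no other genotype or treatment was used. Chromatin was cut with micrococcal nuclease and precipitated for monomethylated histone H3 lysine 4 (H3K4me1), a mark of enhancers that also lies along transcribed genes, or for acetylated lysine 27 (H3K27ac), a mark of active promoters and enhancers. The labels list 16 samples in 8 groups of 2, an immunoprecipitate and an input for each mark and age, but the values came from 4 peak lists, each called on the 2 immunoprecipitates of a mark and age together. The spread between replicates and the read depth are therefore unknown, no test of age was possible, and each difference given here is one between 2 lists.

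The 4 lists held 25439 to 43871 peaks and covered 8.95 to 17.9 Mb. The covered length was lower at day 50 than at day 10 for H3K4me1 (17.3 and 17.9 Mb) and for H3K27ac (8.95 and 9.19 Mb). As a check of the tissue, the regions of the neuronal genes elav and nSyb had peaks of both marks at both ages. The glial gene repo had H3K4me1 peaks at both ages but 0% under H3K27ac. The photoreceptor gene ninaE, which encodes the main rhodopsin, had 0% under H3K27ac at day 10 and 4.58% at day 50. Another photoreceptor gene, trp, which encodes a channel of the light response, had 10.7% and 4.18%. Whole heads hold many cell types, so a mark lost from some cells and fewer cells carrying it cannot be told apart.

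For each gene the measure was the share of its region, the gene body and 1000 bp on both sides, that lay under peaks. This share is per length, so a long gene can hold more covered bases than a short one at a lower share. Regions of the Rab genes were 2791 to 18254 bp long with a median of 4731 bp. Every one of the 29 regions overlapped the body of at least 1 other protein-coding gene, which took a median of 30.2% of the region. A difference is the share at day 50 minus that at day 10, in percentage points, and was called when it reached 5 points in either direction.

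Most Rab genes carried both marks at both ages. Peaks in all 4 lists were found for 26 of the 29, or 89.7%, while 58.4% of all protein-coding genes had them. Taken by mark, 26 Rab genes had a peak at both ages in H3K4me1 (70.6% of all genes) and 26 in H3K27ac (60.6%). Within 500 bp of either gene end, 22 Rab genes (75.9%) had H3K4me1 peaks at both ages, against 53.9% of all genes, and 25 (86.2%) had H3K27ac peaks, against 52.2%. The exceptions were RabX2, Rab9D and Rab9E, 3 small genes of X. RabX2 and Rab9D had no peak in any list. The region of Rab9E had no H3K4me1 peak and 2.98% under H3K27ac at day 10, from 86 bases at the edge of 1 peak whose summit lay outside the gene, and 0% at day 50. All bases of the RabX2 and Rab9E regions lie inside the bodies of other genes. The 3 genes outside the rule, Rab9Db, Rab9Fa and Rab9Fb, were also at 0% in all 4 lists. How reads that match several places were treated is not stated, so for genes with close copies an absent mark and dropped reads cannot be told apart.

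Over the 29 Rab genes the median H3K4me1 share was 25.0% at day 10 and 28.9% at day 50, and the median H3K27ac share was 17.2% and 19.8%. Over all protein-coding genes the medians were 16.0% and 16.3% for H3K4me1 and 6.42% and 7.77% for H3K27ac. The Rab genes thus stood above the typical gene in both marks at both ages. Part of that gap came from genes without peaks, since among genes with a peak of the mark at either age the day 10 medians were 29.4% for Rab genes and 24.9% for all genes in H3K4me1, and 18.0% and 13.3% in H3K27ac.

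**Figure D1:**
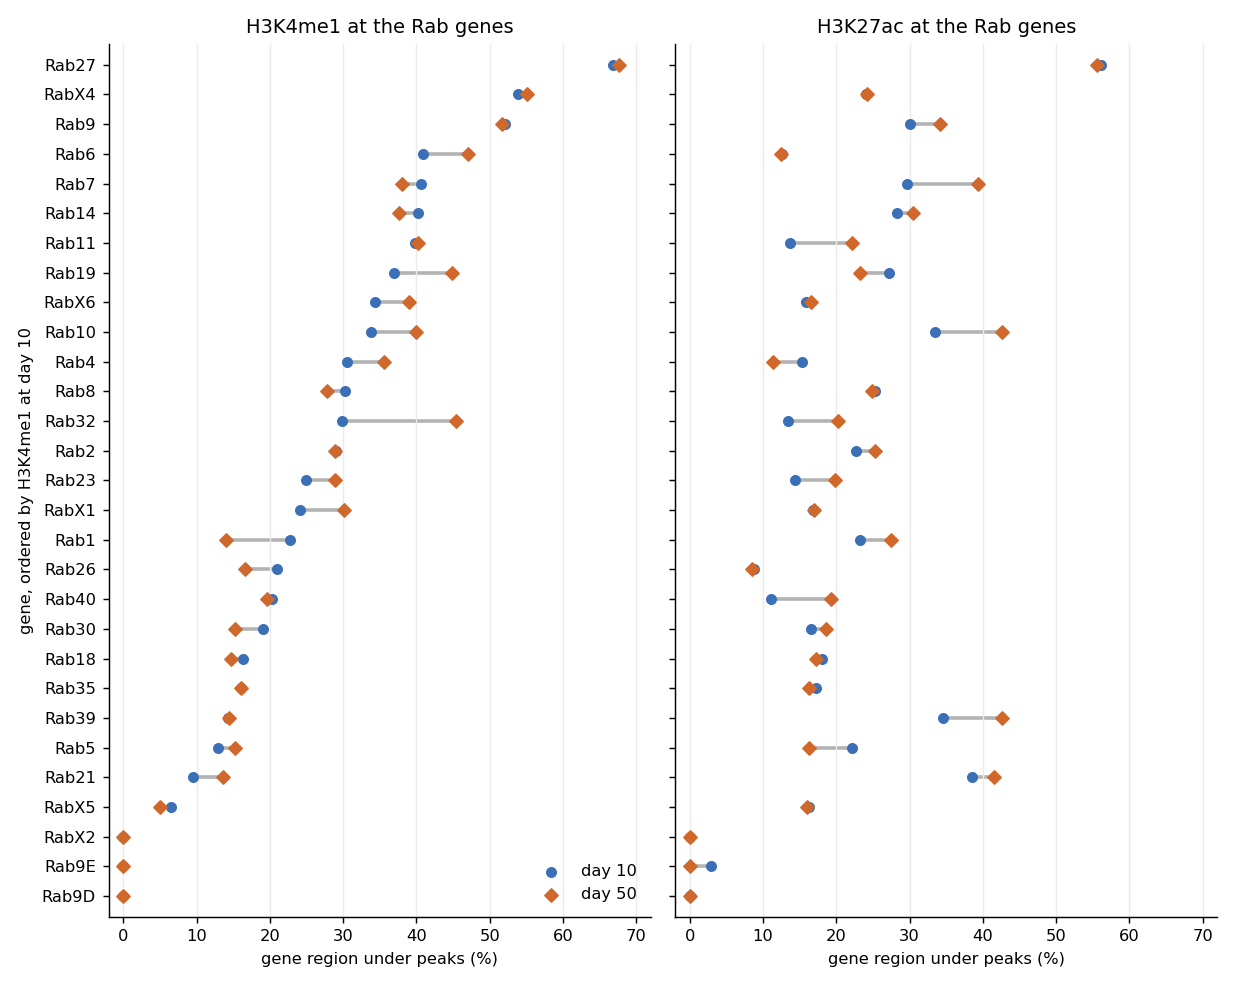
Share of each Rab gene region under H3K4me1 peaks (left) and H3K27ac peaks (right), in percent, at day 10 (circles) and day 50 (diamonds), with genes ordered by H3K4me1 at day 10. Each point is 1 pooled peak list, so there are no error bars. Rab27 has the highest share in all 4 lists, and Rab32 has the longest line in H3K4me1, from 29.8% to 45.4%.

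In H3K4me1, 6 of the 29 Rab genes had a share at least 5 points higher at day 50, against 16.3% of all genes, which makes 20.7% for the Rab genes. A share at least 5 points lower was found for 1 Rab gene (3.45%), against 10.5% of all genes. Counting differences of any size, 15 were higher (51.7%, against 39.5% of all genes) and 11 lower (37.9%, against 36.7%). The median difference was 0.08 points over the Rab genes and 0 over all genes. In H3K27ac, 7 Rab genes (24.1%) were at least 5 points higher, against 17.9% of all genes, and 1 (3.45%) was at least 5 points lower, against 3.81%. Differences of any size were higher for 16 (55.2%, against 47.1% of all genes) and lower for 11 (37.9%, against 18.5%). Among genes with an H3K27ac peak at either age, 11 of 27 Rab genes were lower, against 2575 of all 9171. The median difference was 0.19 points. Among genes with an H3K27ac peak at either age it was 0.61 for 27 Rab genes and 1.73 for all 9171 genes. Restricted to genes with a peak of the mark at either age, calls toward higher were 23.1% of Rab genes against 21.3% of all genes in H3K4me1, and 25.9% against 27.2% in H3K27ac. Calls toward lower were 3.85% against 13.8%, and 3.70% against 5.8%. The share of Rab genes called higher was thus close to the background in both marks.

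The 15 calls fell on 13 genes, and only Rab10 and Rab32 were called in both marks, both times higher at day 50. That is 6.90% of the Rab genes, against 4.39% of all genes. The remaining called genes passed 5 points in 1 mark alone.

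**Figure D2:**
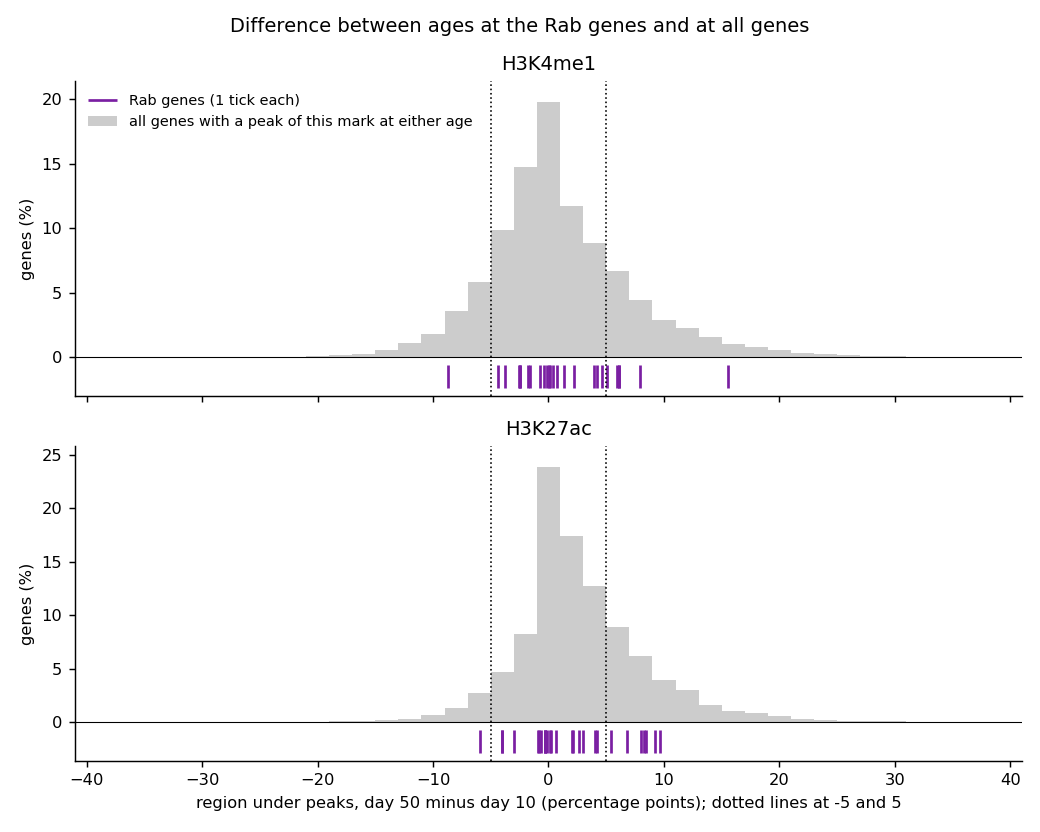
Difference in covered share, day 50 minus day 10, in percentage points, for H3K4me1 (top) and H3K27ac (bottom). Grey bars are the percent of all genes with a peak of that mark at either age in bins of 2 points, with genes beyond the axis placed in the end bins, and each purple tick is 1 Rab gene. The Rab genes run from -8.66 to 15.6 points in H3K4me1 and from -5.95 to 9.67 in H3K27ac, inside the spread of all genes.

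Among the Rabs of the endoplasmic reticulum and the Golgi, Rab1 had a lower H3K4me1 share and a higher H3K27ac share at day 50. Rab1 (3R, 21266029 to 21269060) drives transport from the endoplasmic reticulum to the Golgi. Its H3K4me1 share was 22.7% at day 10 and 14.0% at day 50, the only H3K4me1 call in that direction, while its H3K27ac share was 23.3% and 27.5%. The H3K4me1 difference of -436 bases came from a peak of 262 bases found at day 10 only (3R, 21268152 to 21268413) and from narrower peaks elsewhere. At the same place H3K27ac was broader at day 50, where 1 peak of 802 bases covered what were 2 peaks of 349 and 178 bases at day 10.

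Rab6, which acts in traffic within and from the Golgi, had H3K4me1 shares of 40.9% and 47.0% and H3K27ac shares of 12.6% and 12.4%. The H3K4me1 difference lay outside the gene. Peaks found at day 50 only, of 149 and 177 bases, flanked it on either side, while in the gene body alone the difference was -5.91 points. Rab2 works at the Golgi and in the delivery of cargo to lysosomes. Its H3K4me1 shares were 29.0% and 28.9% and its H3K27ac shares 22.7% and 25.3%. Rab30, a Golgi Rab, had 19.0% and 15.2% in H3K4me1 and 16.6% and 18.6% in H3K27ac. Rab18, known from the endoplasmic reticulum and from lipid droplets, had 16.4% and 14.6%, then 18.0% and 17.2%. In this group of 5 genes, 4 had a lower H3K4me1 share at day 50 and 1 a higher one, and 3 had a higher H3K27ac share and 2 a lower one. In H3K4me1, 36.7% of all genes were lower, or 5114 of the 10652 with a peak at either age. In H3K27ac, 47.1% of all genes were higher, or 6570 of the 9171 with a peak. The group was not tested against these shares, and the role groups were made with earlier results of these data known. The H3K4me1 differences of Rab2 and Rab18 were only -5 and -52 bases. Leaving out bases inside other genes, they were 4.32 and -9.50 points. At that setting Rab18 had 9.50% at day 10 and 0% at day 50, its peak of 166 bases in the gene being found at day 10 only.

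Among the Rabs of exocytosis and polarised delivery, Rab27 had the highest share and Rab26 the lowest in both marks. In bases the order was another, since Rab26 had 3830 under H3K4me1 at day 10 against 3403 for Rab27, and 3032 against 3440 at day 50. Under H3K27ac Rab26 had 1601 bases at day 10, against 1413 for Rab8. Rab27, a Rab of regulated secretion, had the highest share of all 29 genes in each list, with 66.8% and 67.6% under H3K4me1 and 56.2% and 55.5% under H3K27ac. Its 2 marks lay largely on the same bases, since 84.2% of the H3K27ac-covered bases were also under H3K4me1 at day 10 and 89.5% at day 50. Rab26, known from secretory granules and synaptic vesicles in mammals, is the longest gene of the set (3L, 21318774 to 21335027) and had 21.0% and 16.6% under H3K4me1 and 8.77% and 8.46% under H3K27ac. In it 3 H3K4me1 peaks of 182 to 402 bases inside the gene were found at day 10 only, and 1 of 157 bases at day 50 only.

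Rab10, which delivers vesicles to the basal and basolateral membrane, was called in both marks. On X from 20251338 to 20254691, it had 33.8% and 39.9% under H3K4me1 and 33.5% and 42.6% under H3K27ac. Day 50 brought H3K4me1 peaks of 162 and 155 bases inside the gene with folds of 2.71 and 3.08, and an H3K27ac peak of 173 bases with a fold of 3.54. Fold here is the authors' enrichment over background for that peak. The other H3K27ac bases came from wider versions of peaks already present at day 10. The H3K4me1 difference was -4.90 points when the region was widened to 2000 bp on both sides. Rab8, a Rab of delivery to the plasma membrane, had 30.2% and 27.8% under H3K4me1 and 25.3% and 24.9% under H3K27ac. Its strongest H3K27ac peak, near its high-coordinate end, had a fold of 4.73 at day 10 and 5.65 at day 50, the highest fold of any Rab peak in the day 50 list.

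Among the Rabs of early and recycling endosomes, Rab5 and Rab11 differed in H3K27ac in opposite directions. Rab5 (2L, 2359142 to 2365273) controls the fusion of endocytic vesicles with early endosomes. It had 22.2% under H3K27ac at day 10 and 16.2% at day 50, the only H3K27ac call toward lower, and 13.0% and 15.2% under H3K4me1. Day 10 H3K27ac peaks of 190 and 212 bases (folds of 2.53 and 3.02) on either side of a peak kept at both ages had no counterpart at day 50. The strongest Rab5 peak, near the high-coordinate end of the gene, was present at both ages with folds of 3.93 and 4.41 and widths of 401 and 399 bases. Counting only bases within 500 bp of either end of Rab5, the difference was 1.30 points, so the lower cover lay in the interior of the gene.

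Rab11 (3R, 21111408 to 21116146), the main Rab of recycling endosomes and of transport of rhodopsin to the light-sensing membrane, had 13.7% and 22.1% under H3K27ac and 39.8% and 40.2% under H3K4me1. Its H3K27ac peaks numbered 2 at day 10 and 6 at day 50, and 3 of the latter had no counterpart at day 10. The strongest of these, from 21116278 to 21116628, lay 131 bases beyond the high-coordinate end of the gene with a fold of 3.55. The other 2, of 158 and 187 bases with folds of 2.05 and 2.12, overlapped H3K4me1 peaks within the gene. When only the better-ranked 50% of peaks in each list were counted, the Rab11 difference was -0.01. The day 50 peak beyond the gene end stayed in that count, and so did the day 10 peak of 848 bases near the low-coordinate end. At day 50 the place of that day 10 peak held 2 peaks, of 496 and 261 bases, and only the wider one stayed in the count.

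The remaining endosomal Rabs had H3K27ac differences under 5 points over the whole region. Rab4, of fast recycling, had 30.5% and 35.6% under H3K4me1 and 15.4% and 11.3% under H3K27ac. Its H3K4me1 call came from 1 peak beyond the gene that was 441 bases wide at day 10 and 632 at day 50, and without bases inside other genes the difference was -0.41 points. At that same setting Rab4 had 18.0% and 9.63% under H3K27ac, a difference of -8.39 points, beside -7.25 for Rab5. Rab14, which works between endosomes and the Golgi and on phagosomes, had 40.2% and 37.6%, then 28.3% and 30.4%, and its strongest H3K27ac peak had folds of 4.97 and 5.37. Rab21, of early endosomes, had more H3K27ac than H3K4me1, with 38.5% and 41.5% against 9.45% and 13.6%. Rab35, of recycling and actin control, had 16.0% and 16.1% under H3K4me1 and 17.2% and 16.2% under H3K27ac.

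Among the Rabs of late endosomes and lysosome-related organelles, H3K27ac differed in 1 direction. All 4 had a higher share at day 50, and 3 of them by at least 5 points, while 47.1% and 17.9% of all genes did. Among genes with an H3K27ac peak at either age, as all 4 were, 6570 of 9171 were higher, and 27.2% by at least 5 points. The group of 4 was not tested against these shares. The role groups were made with earlier results of these data known, and Rab19 and RabX6 changed role after values were seen. Rab7, which directs the maturation of late endosomes and their fusion with lysosomes, had 29.6% and 39.3% under H3K27ac, the largest H3K27ac difference of the 29 genes, and 40.6% and 38.1% under H3K4me1. Of its 430 additional bases, 159 lay in a peak found at day 50 only and 271 in wider versions of peaks of both ages. Without bases inside other genes the Rab7 difference was 3.65 points, and within 500 bp of the gene ends it was 0.55. Rab39, of late endosomes and lysosomes, had 34.6% and 42.6% under H3K27ac and 14.3% and 14.4% under H3K4me1. The Rab39 H3K27ac peaks numbered 4 at both ages, and the one that widened most, from 207 to 497 bases, lay inside the gene. Near the gene ends the Rab39 difference was -0.05 points. The strongest peak of the Rab39 region lay 508 bases before the low-coordinate end of the gene at day 10, with folds of 5.11 and 5.46. That peak lay inside the body of another gene. Rab9, of transport from late endosomes to the Golgi, had 30.1% and 34.1% under H3K27ac and 52.0% and 51.7% under H3K4me1.

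Rab32, known in flies as lightoid for its part in eye pigment granules, had the largest difference of any Rab gene. Its region on 2R (gene from 9177864 to 9186342) had 29.8% under H3K4me1 at day 10 and 45.4% at day 50, or 3122 and 4754 bases. Peaks found at day 50 only, of 391 and 532 bases with folds of 2.0 and 1.96, made up 923 of the 1632 additional bases, and the net widening of peaks present at both ages made up 709. H3K27ac stood at 13.4% and 20.3%, with 3 peaks of 213 to 387 bases found at day 50 only and 1 of 173 bases found at day 10 only. Each of these 3 overlapped an H3K4me1 peak of day 50. The Rab32 H3K4me1 difference was positive under all 9 alternatives, between 2.25 and 19.3 points, and lowest near the gene ends, so most of it lay inside the gene. Counting the better-ranked 50% of peaks, it was 3.22 points.

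**Figure D3:**
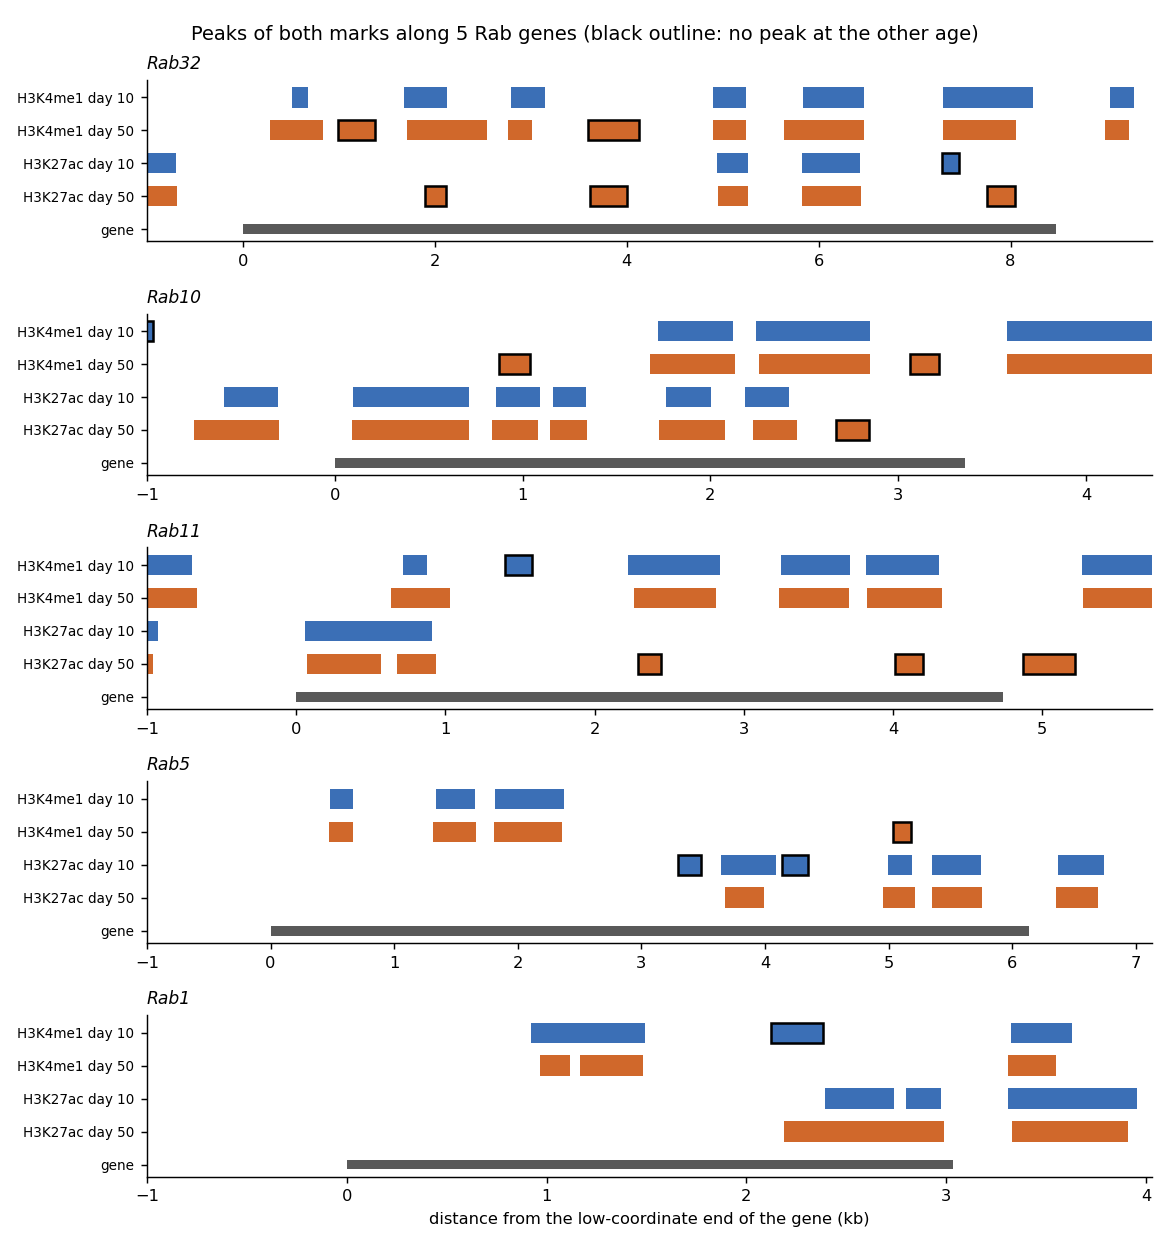
Peaks of both marks at day 10 (blue) and day 50 (orange) along Rab32, Rab10, Rab11, Rab5 and Rab1, with distance in kb from the low-coordinate end of each gene (grey bar) and 1 kb shown beyond both ends. A black outline marks a peak with no overlapping peak of that mark at the other age. Rab32 has outlined day 50 peaks of both marks in the interior of the gene, and Rab5 has outlined day 10 H3K27ac peaks on either side of a kept one.

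The other conserved Rabs were Rab23, which takes part in planar cell polarity of the wing, and Rab40, whose vertebrate counterparts join ubiquitin ligase complexes. Both had higher H3K27ac cover at day 50 past 5 points. The Rab40 difference was 1.55 points near the gene ends, 3.95 with -log10 q of 5 or more and 0.85 with the better-ranked 50% of peaks, and the Rab23 difference was 2.92 with 2000 bp on both sides. Rab40 had 11.1% and 19.4%, with peaks of 165 and 147 bases found at day 50 only that lay on H3K4me1 peaks of both ages, while its H3K4me1 share was 20.3% and 19.6%. Rab23 had 14.3% and 19.8% under H3K27ac and 25.0% and 28.9% under H3K4me1. The Rab23 H3K27ac peaks numbered 3 at both ages, and those inside the gene widened from 232 to 370 and from 191 to 450 bases. The strongest peak of the Rab23 region (folds of 5.11 and 5.28) lay 366 bases beyond the high-coordinate end at day 10. Most of its bases in the region lay inside the body of another gene. The Rab23 region overlaps the bodies of Atg17 and plx, and Rab23 without those bases had an H3K27ac difference of 6.79 points.

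Rab19 and the RabX genes are less studied. Rab19 had 36.9% and 44.9% under H3K4me1 and 27.3% and 23.2% under H3K27ac, differences of 7.94 and -4.07 points. The first was 2.33 with 500 bp on both sides, 4.10 in the gene body alone, 0 near the gene ends and 2.01 with the better-ranked 50% of peaks. Its H3K4me1 peak in the gene spanned 792 bases at day 50, in place of 2 peaks of 213 and 518 bases at day 10, and a further 207 bases lay in a day 50 peak outside the gene. RabX1 had 24.2% and 30.1% under H3K4me1 and 16.8% and 17.0% under H3K27ac. There too, 1 peak of 1152 bases at day 50 stood in place of 3 narrower ones at day 10. Keeping only peaks whose -log10 q was 5 or more, the RabX1 difference was -2.22 points. RabX4 had the second highest H3K4me1 cover, 53.8% and 55.1%, and 24.0% and 24.2% under H3K27ac. RabX6 had 34.3% and 39.0%, then 15.9% and 16.5%, and RabX5 had 6.58% and 4.96%, then 16.2% and 16.0%. All covered bases of the RabX5 region lay inside the bodies of other genes.

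**Figure D4:**
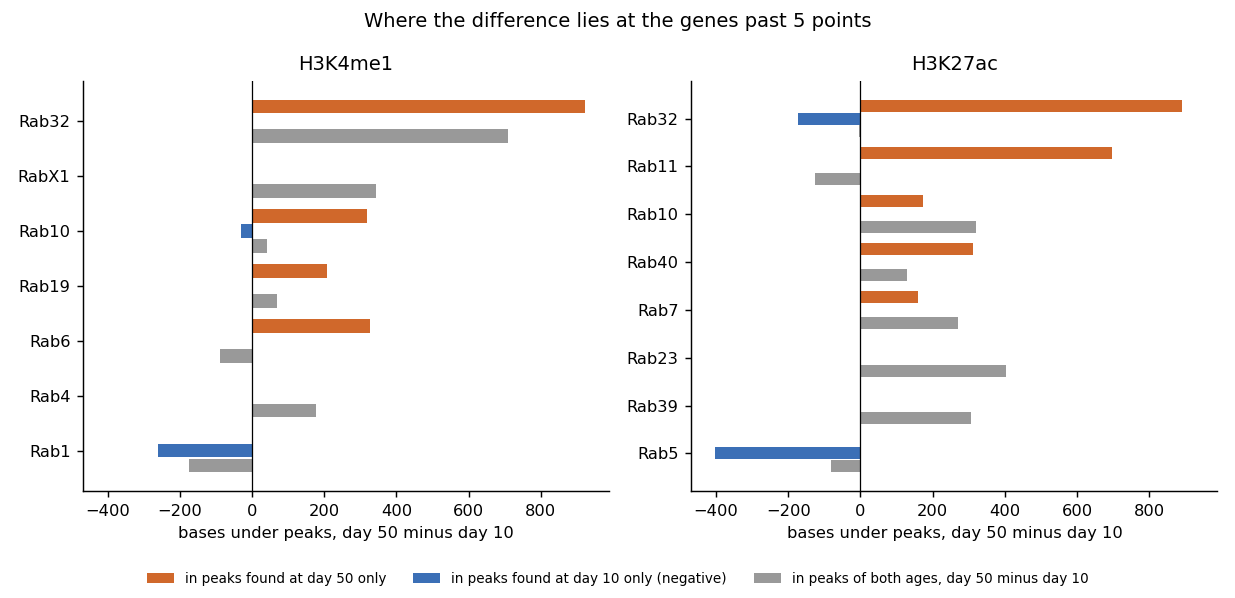
Bases under peaks, day 50 minus day 10, at the genes past 5 points in H3K4me1 (left) and H3K27ac (right), divided into peaks found at day 50 only (orange), at day 10 only (blue, drawn negative) and peaks of both ages (grey). Rab32, Rab11 and Rab40, and in H3K4me1 Rab10, Rab6 and Rab19, differ mostly through peaks found at day 50 only. In contrast, Rab23, Rab39, RabX1 and Rab4 differ through peaks of both ages alone.

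Peaks at the Rab genes were mostly found at both ages. Of 98 H3K4me1 peaks at day 10, 90 overlapped a day 50 peak by at least 1 base (91.8%, exact 95% interval 84.5% to 96.4%), and of 83 H3K27ac peaks 77 did (92.8%, 84.9% to 97.3%). The intervals cover counting error only and take the peaks as independent, although many lie in the same gene. Over peaks in all gene regions these shares were 81.1% and 77.4%. From day 50 to day 10 the shares were 88.3% and 86.7% at the Rab genes, and 83.8% and 80.0% over all gene regions. The Rab peaks were also stronger and wider than most. At day 10 their median fold stood at percentile 70.0 of the H3K4me1 list and at 69.6 of the H3K27ac list, and their median widths were 414 and 323 bp against 296 and 280 bp in the whole lists. The part of strength and width in the sharing was not tested.

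In all, 38 Rab peaks at 17 genes had no counterpart at the other age. For H3K4me1 these were 8 at day 10 and 12 at day 50, and for H3K27ac 6 and 12. By their medians they were weaker and narrower than the peaks found at both ages. The H3K27ac peaks found at day 50 only had a median fold of 2.27 and a median width of 169 bp, against 3.18 and 379 bp for the day 50 peaks with a counterpart. Of the 38, 13 lay within 500 bp of a gene end. Among these the highest folds belonged to Rab11 (3.55, H3K27ac at day 50), Rab18 (3.16, H3K4me1 at day 10) and Rab10 and Rab21 (both 3.08 at day 50, in H3K4me1 and H3K27ac).

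The marks divided the Rab genes by their balance. H3K27ac covered more of the region than H3K4me1 at 8 Rab genes at day 10 (27.6%, against 13.3% of all genes) and at 10 at day 50 (34.5%, against 16.0%). At day 10 these were Rab1, Rab5, Rab18, Rab21, Rab35, Rab39, RabX5 and Rab9E. At day 50 Rab7, Rab10 and Rab30 joined them and Rab9E, then without a peak, dropped out. None of these joined when bases inside other genes were left out. Rab7 then had 24.7% under H3K27ac and 33.6% under H3K4me1 at day 50, and Rab30 had 14.9% and 19.4%. Rab10 was already higher in H3K27ac at day 10, with 41.8% and 27.8%. A gene without an H3K27ac peak cannot be counted here. Of all 13946 genes 4775 had none at either age, against 2 of the 29 Rab genes, so part of the gap came from genes without peaks. Among the 9171 genes with such a peak, 1849 were counted at day 10 and 2235 at day 50. Some margins were small, as at Rab1 at day 10 (1172 and 1142 bases) and Rab35 at day 50 (992 and 983). Rab39 and Rab21 had the widest gaps in this direction, and at day 10 RabX4, Rab6 and Rab11 had the widest gaps toward H3K4me1. With bases inside other genes left out, Rab39 had 26.3% under H3K27ac and 24.5% under H3K4me1 at day 10. At day 50 it had 40.4% and 24.6%. Rab21 kept a wide gap at that setting, with 33.6% and 11.1% at day 10 and 36.9% and 9.81% at day 50.

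**Figure D5:**
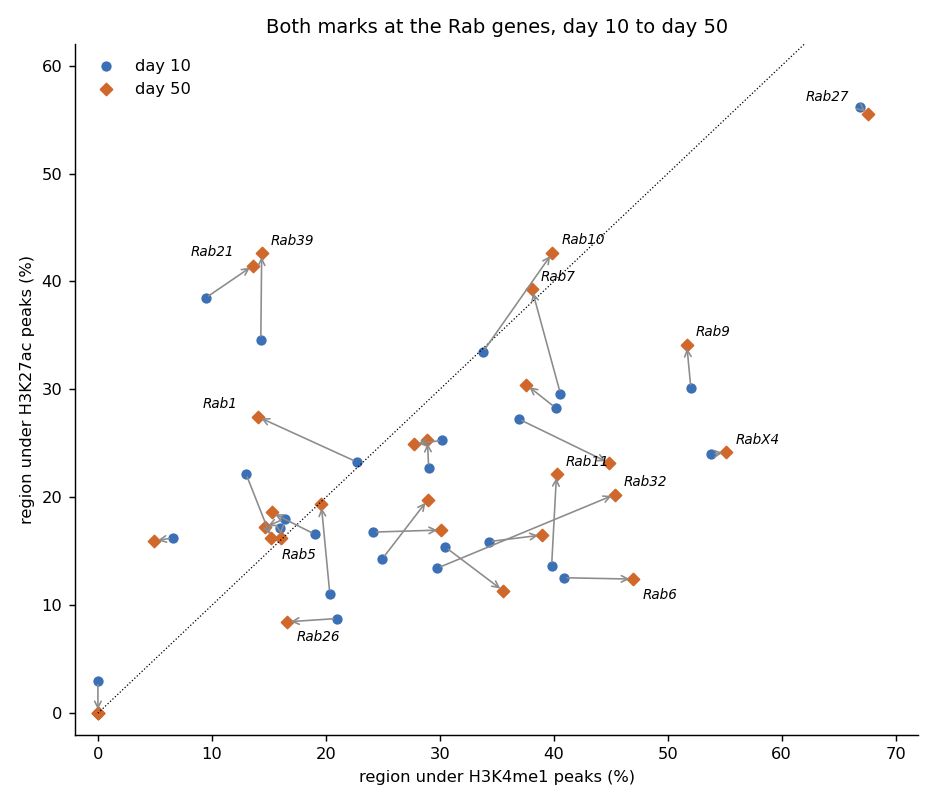
Share of the region under H3K4me1 peaks (horizontal, percent) and H3K27ac peaks (vertical, percent) for the 29 Rab genes at day 10 (circles) and day 50 (diamonds), joined by arrows, with a dotted line where both shares are equal. Rab39 and Rab21 lie far above the line and Rab6 and RabX4 far below it. Rab7 and Rab10 cross it between the ages, and Rab10 moves up in both marks. Shares include bases inside other genes, and without those bases neither Rab7 nor Rab10 would cross the line.

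The bases under both marks at once numbered 12714 over the Rab regions at day 10 and 15630 at day 50. These were 30.5% of the H3K4me1-covered bases at day 10 and 35.8% at day 50, while over all gene regions the shares were 29.6% and 29.7%. Of the H3K27ac-covered bases they were 42.3% and 47.0%, below the 56.4% and 55.7% over all gene regions. By gene, 14 had more such bases at day 50 and 9 had fewer. Rab39 went from 5.40% to 13.0% of its region under both marks, Rab10 from 7.77% to 16.7% and Rab7 from 6.12% to 13.7%. In contrast, Rab4, Rab6 and Rab18 had peaks of both marks at both ages but 0 bases under both, the marks lying on separate stretches of the region.

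Cover differed between the chromosomes that carry the Rab genes. The median H3K4me1 share at day 10 was 15.2% over the 10 genes of X and 30.2% over the 19 of the autosomes, while H3K27ac stood at 17.6% and 16.8%. Over all genes of X and of the autosomes the H3K4me1 medians were 15.1% and 16.2%. The 3 Rab genes without H3K4me1 peaks are all on X and count in its median.

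Genes that act with the Rabs were described by lists of the same kind. Of 19 genes of exchange factors and Rab chaperones, 7 were at least 5 points higher and 2 lower in H3K4me1 at day 50, and 7 were higher and 0 lower in H3K27ac. Of all genes with a peak of the mark at either age, 21.3% were higher and 13.8% lower by that measure in H3K4me1, and 27.2% and 5.8% in H3K27ac, which is the background for each of these lists. In H3K4me1 the gene Sbf had 37.5% and 52.6%, whereas Rab3-GEF, an exchange factor of synaptic vesicle release, had 23.1% and 6.69%. In H3K27ac, Rep, the escort protein for lipid attachment to Rabs, had 6.04% and 19.5%. Of 14 genes of GTPase-activating proteins, mostly with a TBC domain, 3 were higher and 0 lower in H3K4me1, and 4 and 0 in H3K27ac. TBC1D5 led both, with 28.6% and 46.6% under H3K4me1 and 5.52% and 18.9% under H3K27ac.

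Of 42 effector genes, 14 were at least 5 points higher and 7 lower in H3K4me1, and 8 and 0 in H3K27ac. The Golgi tether gene Golgin245 had 38.6% and 72.1% under H3K4me1, Golgin84 had 37.6% and 58.1%, and the myosin V gene didum had 32.1% and 49.4%. Vps29, a retromer subunit, had 60.7% and 49.0%. In H3K27ac the lysosomal tether gene dor had 13.8% and 29.7% and the exocyst gene Sec6 had 16.4% and 31.1%. Of 12 Arf and Arl genes, the other large family of traffic GTPases, 2 were higher and 2 lower in H3K4me1, and 3 and 0 in H3K27ac, where dnd had 12.6% and 26.2%. The median H3K27ac differences were 2.96 points for exchange factors, 2.46 for GTPase-activating proteins, 1.83 for effectors and 1.12 for Arf and Arl genes, beside 0.61 for Rab genes and 1.73 for all genes that had a peak of the mark at either age. All but 1 gene each of the exchange factor list and the Arf and Arl list had such a peak. Differences between these lists were not tested.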

How the data were processed

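ChIP peaks of heads from 50 mg of tissue per replicate were analysed. Tools listed in the submitters' processing notes, without roles, are MACS2 2.1.1, STAR 2.5.3a, deepTools, FastQC and Trim Galore, with build BDGP6, and their parameters are not stated. Per the deposited peak names, replicates were pooled before calling. The deposited fold enrichment, a ratio to background, was taken from column 7, and the -log10 q was also deposited by the authors. The summit offset was likewise deposited by the authors. Percentiles of fold were taken within a list. Folds printed for 1 peak at both ages come from 2 lists and do not measure a difference in strength. The median fold of the H3K27ac list was 2.49 at day 10 and 2.61 at day 50. By percentile the strongest H3K27ac peaks in the regions of Rab14, Rab39 and Rab23 stood at 99.5, 99.6 and 99.6, then at 99.3, 99.5 and 99.2. Those of Rab8 and Rab5 stood at 99.1 and 94.7, then at 99.7 and 95.7. A q threshold admits more peaks in deeper libraries, and depth is unknown. Gene bodies were read from RefSeq (Release 6), whose table gives no strand or exons, so both gene ends stood in for starts and no sequence could be shown.

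Covered bases were computed with Python 3.11.15, numpy 2.4.6 and pandas 2.3.3, and intervals with scipy 1.17.1. The code was tested on simulated data. Members and lists were chosen with earlier results of these data known; unmatched symbols were dropped, and Rab19 and RabX6 were moved between roles after values were seen. The naming rule took, per mark, the 6 largest differences in each direction and the 5 highest shares at day 10. From each list of related genes it allowed the 3 largest differences in each direction, and some of these are given. Single peaks beyond the strongest and those of 1 age at gene ends were chosen after their values were seen. Alternatives changed the region, the q threshold, the number of peaks and the overlap. Values of 1 gene named by that rule are not reported here.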

Additional observations from a re-analysis of the deposited data

How the results depend on the processing

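No paired analysis was possible because the peak lists pool the replicates, and for the same reason no replicate was left out. Numbers of genes past 5 points are small and moved with the setting. H3K4me1, at least 5 points higher, counted 6 and became 3 with 500 bp flanks, 2 at gene ends and 3 with the upper 50% of each list. H3K4me1, at least 5 points lower, counted 1 and became 3 with 500 bp flanks, 0 with 2000 bp flanks, 6 with gene bodies alone, 2 at gene ends, 2 with -log10 q of at least 5, 3 with the upper 50%, 3 with peaks at least 50% inside the region, and 3 without bases inside other genes. That last setting was chosen after seeing the data. H3K27ac, higher, counted 7 and became 4 at gene ends. H3K27ac, lower, counted 1 and became 2 with 500 bp flanks, 2 with gene bodies alone, 3 at gene ends and 2 without bases inside other genes. The fewer or other bases that each setting counts are part of its construction; further causes were not tested.

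Single genes changed direction as follows. Gene bodies alone gave -5.91 for Rab6 and -0.46 for Rab4 in H3K4me1. Without bases inside other genes these were -4.90 and -0.41, and with the upper 50% Rab4 was at -0.20. Rab10 was at -4.90 with 2000 bp flanks. RabX1 was at -1.10 at gene ends and -2.22 with -log10 q of at least 5, and Rab1 was at 0.85 at gene ends. In H3K27ac, gene ends gave -0.05 for Rab39 and 1.30 for Rab5, and the upper 50% gave -0.01 for Rab11. None of the 15 calls passed 5 points in its direction under all 9 alternatives. The median difference ran from 0 to 1.63 points in H3K4me1 (0.08 as reported), and from 0 to 1.36 in H3K27ac (0.19 as reported), highest with 2000 bp flanks in both. Counts of genes with a peak at both ages stayed within 1.5 times, and shares of day 10 peaks found at day 50 within their exact intervals. Unknown depth and pooled replicates limit every value.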
